A study of Mus musculus with 20 samples.

Results

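The Ly6 genes Ly6d, Ly6c1, Ly6a, Ly6e, Ly6f, Ly6h, Ly6i and Ly6k were followed in liver and white adipose tissue (WAT) of obese mice with and without the cell surface receptor CD44. A gene was read by the probes that carry its name in the array files (Ly6c for Ly6c1) or whose accession has it as current symbol. This gave 10 probes for 8 genes, of 41174 probes on the array, and the brightest probe of each gene was used. The genes were gathered because Ly6d and Ly6c1 differed between the genotypes in liver. The genotype values of all 8 genes in liver, and the tissue values of these 2, are therefore given as a description without a test.

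The series holds 20 Agilent 44k mouse arrays in 1 colour (Cy3), 5 for each genotype and tissue. All mice were C57BL/6 males aged 7 months, fed for 21 weeks with a diet of 35% fat, the HFD of the group names, so all 4 groups share the diet. WT(HFD) mice were wild type, and CD44KO(HFD) mice carried a knockout of Cd44 that is not limited to a cell type and, by the study's methods, had been backcrossed to C57BL/6J. The labels give the tissue, the genotype and a replicate number from 1 to 5, and nothing states that an array's liver and WAT came from the same mouse.

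Ly6 proteins are small proteins built on a compact fold held together by disulfide bonds, and most are tied to the outer face of the cell membrane by a glycosylphosphatidylinositol (GPI) anchor. Several mark blood cell lineages: Ly6C marks monocyte subsets, Ly6A, also called Sca-1, marks stem and progenitor cells, and Ly6D marks early B lineage cells as well as keratinocytes. Ly6a, Ly6c and Ly6e are known to be induced by interferon, and many of the mouse genes lie in a cluster on chromosome 15.

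All 10 probes lay on chromosome 15 in the positions of the files (build mm7). Those of the 8 genes spanned about 805 kb from Ly6d to Ly6h. The Ly6d probe (NM_010742) lay at chr15:74842671-74842730 on the minus strand. Gene models of that build were not used here, so exon or untranslated positions are not given. The probes of Ly6e (NM_008529, chr15:75039587-75039646, plus strand), Ly6a (NM_010738, chr15:75075673-75075732, minus strand) and Ly6c1 (D86232, chr15:75125619-75125674, minus strand) followed it. The stretches of the 60-base probes below are shown because they read the genes with the largest differences and because a pair of them is alike. The Ly6d stretch and the brighter Ly6c1 stretch are the first 30 bases of their probes. The Ly6a stretch and the stretch of the other Ly6c1 probe are the 30 bases in which these probes are most alike, with the 26 identical bases in capitals.
Ly6d, NM_010742: caggacaggaagatgtggcttgtgtcccag
Ly6c1, D86232: tattatactatcaccatccacacataagta
Ly6a, NM_010738: GTTATAGAAGcTCCAAgGTGGGagTAGTGT
Ly6c1, NM_010741: GTTATAGAAGgTCCAAtGTGGGgaTAGTGT
At their best ungapped match the Ly6a probe and the NM_010741 probe were identical at 33 of 40 bases. The Ly6d probe shared at most 23 bases with any of the other 9. Ly6c1 has a near-identical neighbour, Ly6c2, and the files name both Ly6c1 probes only Ly6c, so the share of each gene in these signals is uncertain.

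The signal of a probe was put on the log2 scale relative to the 75th percentile of its array, so 0 means a signal equal to that percentile and a difference of 1 means 2-fold. A spot was well above background when the Feature Extraction software had marked it so. The targeted gene followed its labels: the Cd44 probe (NM_009851) read 0.11 to 0.83 in WT(HFD) liver and -4.19 to -3.24 in CD44KO(HFD) liver, and 3.55 to 4.56 against -0.67 to -0.35 in WAT. The probe was lower but not silent in CD44KO(HFD) mice, being well above background on 3 of 5 liver arrays and 5 of 5 WAT arrays. Summed hepatocyte markers were 2790 to 3690 times the 75th percentile in liver and 4.59 to 53.3 times in WAT. Adipocyte markers were 644 to 1610 times in WAT and 220 to 344 times in liver. The array of WT(HFD) WAT replicate 1 stood apart, with 89.5% of spots well above background against 63.2% to 69.5% on the other WAT arrays and a median correlation of 0.838 with its own group. All 9 epididymis markers on the array were well above background there, against 1 to 6 on the other WAT arrays. The differences of the Ly6 genes and the list medians between genotypes in WAT are therefore also given without it.

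In liver, Ly6d, Ly6c1, Ly6a and Ly6e were lower in CD44KO(HFD) than in WT(HFD) mice, Ly6d by 17.2-fold and the other 3 by 1.77-fold to 3.03-fold, while Ly6h, Ly6i and Ly6k differed by -0.34 to 0.07 on the log2 scale. Ly6f was not well above background on any liver array. Of the 7 genes that passed the filter on dim probes, 6 had a difference below 0, with a median of -0.83, against a median of 0.08 over all 24689 probes tested. For 3 of the 7 the genotypes did not overlap with CD44KO(HFD) lower, and for 0 with it higher, where 4.22% and 7.5% of all probes did so. The genes were chosen on this contrast, and nothing is read from those shares. In whole tissue, fewer cells of a type and less RNA per cell cannot be told apart.

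**Figure D1:**
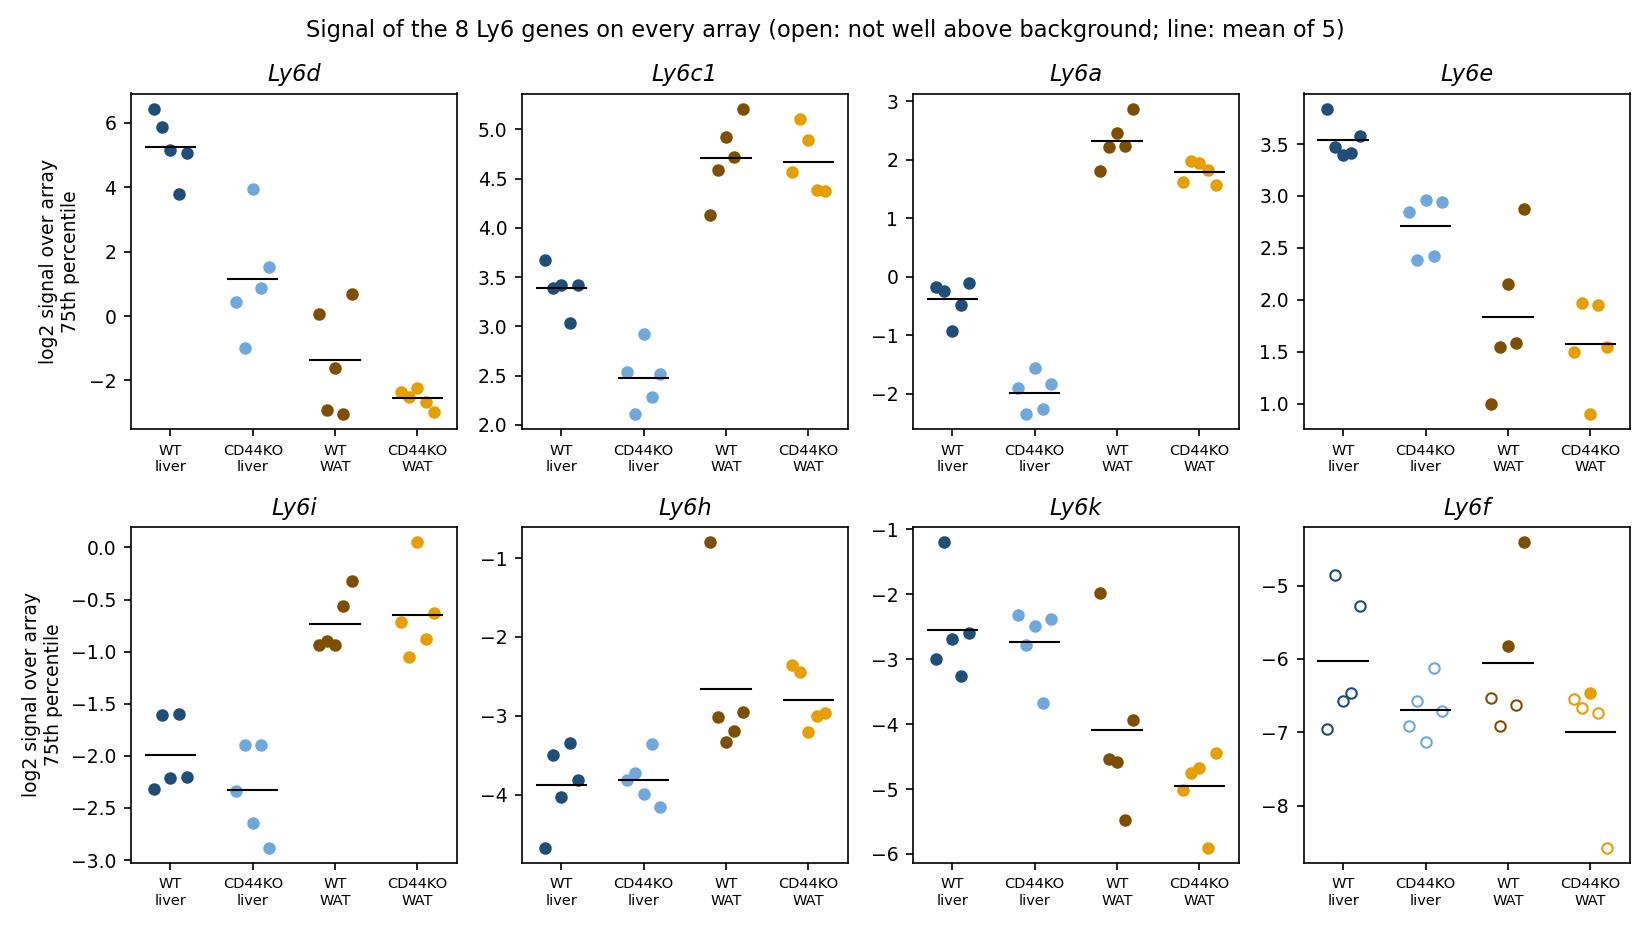
Log2 signal over the array's 75th percentile (vertical axis, a separate scale for each gene) of the 8 Ly6 genes in the 4 groups of 5 arrays. Each point is an array, in order of replicate number from left to right, open where the spot was not well above background, and lines are group means. Ly6a, Ly6c1 and Ly6e separate the genotypes in liver and overlap in WAT.

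Ly6d read 6.43, 5.87, 5.15, 3.78 and 5.05 in replicates 1 to 5 of WT(HFD) liver. In CD44KO(HFD) liver it read 0.43, -1.0, 3.94, 0.88 and 1.53. As processed signals, these were 6770 to 49600 in WT(HFD) and 248 to 7940 in CD44KO(HFD) liver. The groups overlapped through a pair of arrays only, because CD44KO(HFD) replicate 3 was above WT(HFD) replicate 4, and the other CD44KO(HFD) arrays were far below every WT(HFD) array. The means were 5.26 ± 1.0 and 1.16 ± 1.81 (SD, n = 5), a difference of -4.10. The SD of Ly6d was the largest of the 8 genes in CD44KO(HFD) liver. Within each of the 3 liver slides, the difference was -3.01, -4.89 and -4.72, the smallest on the slide that held CD44KO(HFD) replicate 3. In that order, the slides held 2, 2 and 1 arrays of each genotype.

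Ly6c1, read by the D86232 probe, was 3.67, 3.39, 3.42, 3.03 and 3.42 in WT(HFD) liver and 2.54, 2.11, 2.92, 2.28 and 2.52 in CD44KO(HFD) liver. The groups did not overlap, and CD44KO(HFD) replicate 3 was again the highest of its group. The mean difference was -0.91. The dimmer NM_010741 probe gave -0.73, also without overlap, although 2 CD44KO(HFD) arrays were not well above background for it. That probe is the one that resembles the Ly6a probe, and the part of Ly6a RNA in its signal was not tested. Ly6a was -0.17, -0.24, -0.93, -0.48 and -0.11 in WT(HFD) liver. It was -1.90, -2.35, -1.57, -2.27 and -1.84 in CD44KO(HFD) liver, so that no array overlapped and the mean difference was -1.60. Ly6e, which encodes a protein induced by interferon and known to affect the entry of viruses, was 3.84, 3.47, 3.39, 3.41 and 3.58 in WT(HFD) liver. It was 2.85, 2.38, 2.96, 2.42 and 2.94 in CD44KO(HFD) liver, a difference of -0.83 without overlap. Within slides, Ly6c1 differed by -1.02 to -0.82, Ly6a by -1.95 to -0.97 and Ly6e by -1.04 to -0.54.

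The remaining genes did not separate the genotypes in liver. Ly6i ranged from -2.32 to -1.60 in WT(HFD) and from -2.88 to -1.90 in CD44KO(HFD) liver, a difference of -0.34. Ly6h, best known from brain, where its protein binds nicotinic acetylcholine receptors, differed by 0.07. Ly6k, known from testis and sperm, differed by -0.18, and its sign turned between slides, from -1.0 to 0.37. The groups overlapped for both, from -3.26 to -2.32 for Ly6k, where WT(HFD) replicate 2 at -1.20 was the highest. Ly6f had signals of -6.95 to -4.86 in WT(HFD) and -7.13 to -6.13 in CD44KO(HFD) liver, all below the mark for background, so no fold is given.

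**Figure D2:**
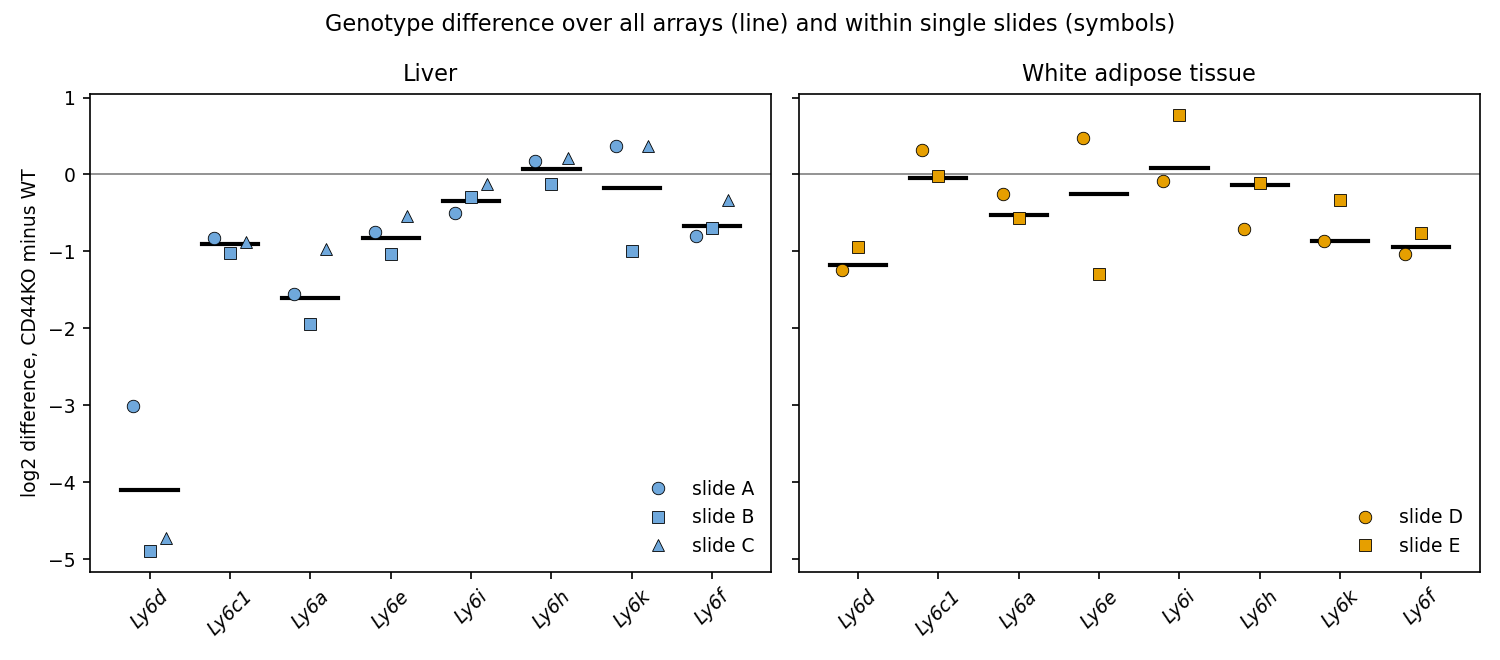
Log2 difference of CD44KO(HFD) minus WT(HFD) (vertical axis) for each of the 8 genes in liver (left) and WAT (right). Lines are the difference of the means of 5 arrays and symbols the difference within each slide that held both genotypes. In liver, Ly6d, Ly6c1, Ly6a and Ly6e lie below 0 on all 3 slides; in WAT, Ly6c1, Ly6e and Ly6i change sign between slides.

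The genes that were lower in liver also varied together among arrays of the same genotype. After removal of each genotype mean, Ly6d correlated with Ly6c1 at r = 0.915, with Ly6e at 0.708 and with Ly6a at 0.653 over the 10 liver arrays. Without CD44KO(HFD) replicate 3 these were 0.848, 0.658 and 0.481 over 9 arrays. Ly6i and Ly6h went the other way, at -0.593 and -0.483, and correlated with each other at 0.823. In both genotypes, Ly6i and Ly6h were highest on replicates 2 and 4, which shared a slide. Ly6h was dim in liver, with processed signals of 22.5 to 48.4, and its other probe was well above background on 0 of 10 liver arrays. The points share arrays and slides, and slide means were not removed. Ly6e in CD44KO(HFD) liver read 2.96 and 2.94 on replicates 3 and 5, which shared a slide. It read 2.38 and 2.42 on replicates 2 and 4, which shared another. Variation between mice and between slides cannot be told apart in these correlations or in those that follow, and the values are a description. Over 22709 other probes, the 5 symbols most like Ly6d were Srxn1 at r = 0.978, Tmcc3 at 0.977, Nol3 at 0.972, Pde7a at 0.97 and Anxa5 at 0.97. Srxn1, which encodes sulfiredoxin, an enzyme that repairs oxidised peroxiredoxins, was 0.89 in CD44KO(HFD) replicate 3 and -0.41 to 0.15 in the other CD44KO(HFD) livers, against 0.43 to 1.45 in WT(HFD) livers. The correlations of these 5 were 0.932 to 0.957 without CD44KO(HFD) replicate 3.

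**Figure D3:**
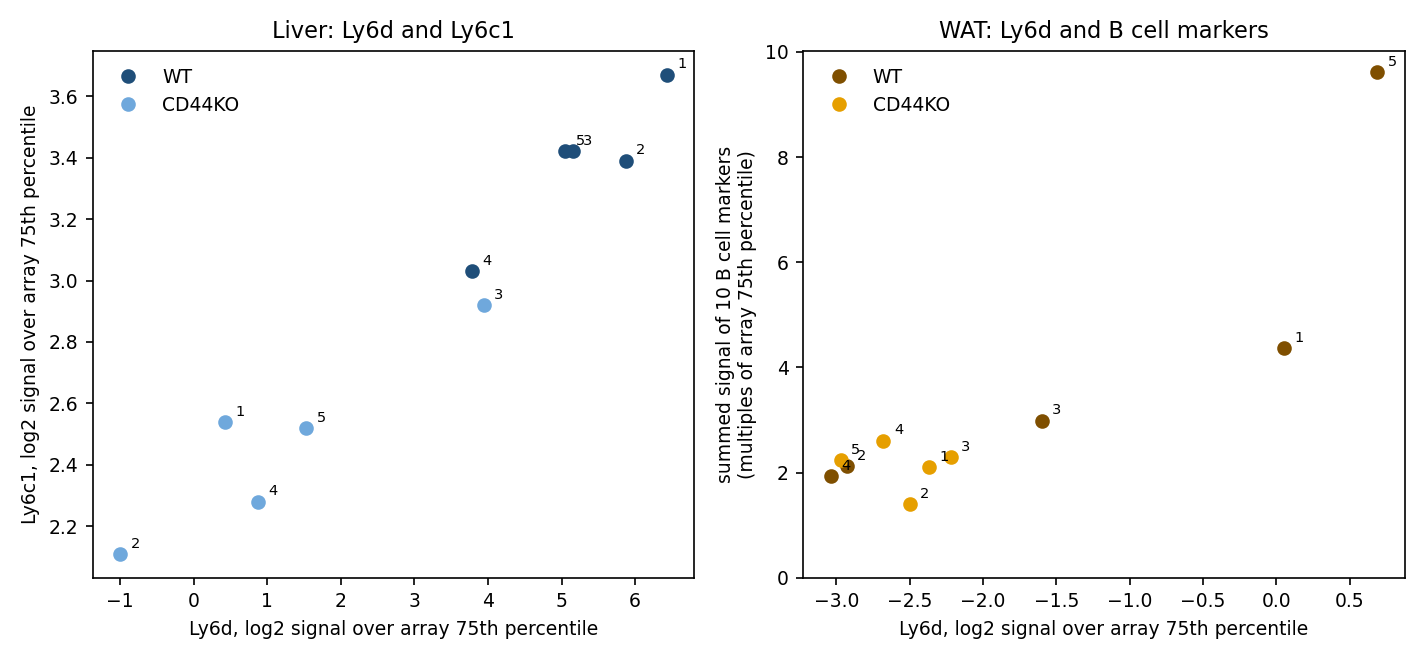
Ly6d (horizontal axes, log2 signal over the array's 75th percentile) beside Ly6c1 in liver (left, same scale) and beside the summed signal of 10 B cell markers in WAT (right, multiples of the 75th percentile). Each point is an array with its replicate number. In liver CD44KO(HFD) replicate 3 lies next to WT(HFD) replicate 4 on both axes; in WAT, WT(HFD) replicates 5 and 1 are the highest on both.

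Lists of other genes were read in liver with the same fit, in which 13.6% of all 24689 probes passed an adjusted p of 0.05 (limma, Benjamini-Hochberg), 5.75% as lower and 7.85% as higher. Genes induced by interferon were lower in CD44KO(HFD) liver: of 30 tested, 22 were lower and 0 higher, all 30 differences were below 0, and the median was -1.0. Ifi27l2a fell from 3.49 ± 0.23 to 1.58 ± 0.74 (SD, n = 5; adjusted p = 0.0103, limma). Usp18, which encodes a protease that removes ISG15 from proteins, fell by 1.76 (adjusted p = 0.00419, limma), and Isg15 itself by 1.21 (adjusted p = 0.000548, limma). Bst2, the brightest of the list in liver, fell by 0.48 (adjusted p = 0.0185, limma). The number lower was 15 to 23 under the other settings and 19 to 24 with any array left out.

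The list of other genes of the Ly6 and uPAR family did not move as a whole. Of 18 tested, 3 were lower and 0 higher in CD44KO(HFD) liver, with a median of -0.14. With any array left out, 2 to 4 were lower. With normexp, without the filter or with a replicate block 2 were lower, and with normexp the median turned to 0.15. Lynx1, whose protein binds nicotinic receptors, fell by 0.82 (adjusted p = 0.0276, limma). Cd59b fell by 2.72 (adjusted p = 4.56e-05, limma) and Cd59a by 1.19 (adjusted p = 0.000222, limma). Both encode CD59, the inhibitor of the membrane attack complex of complement. Their probes lay 1.27 and 1.3 Mb from that of Cd44 on chromosome 2. An effect of the deleted locus, or of any DNA still linked to it after the backcross, cannot be told apart from other effects of the genotype. Gpihbp1, which carries lipoprotein lipase across the endothelium and was the brightest of the list over all arrays, had a difference of 0.47 (adjusted p = 0.164, limma), and Spaca4 0.11 (adjusted p = 0.686, limma).

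Genes for making and attaching the GPI anchor did not move as a group. Of 26 tested in liver, Pigx rose by 0.30 (adjusted p = 0.0376, limma) and Pgap2 fell by 0.28 (adjusted p = 0.034, limma), and the median of the list was 0.05. Pigt, the brightest of the list, differed by -0.02.

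Markers of cells that could carry Ly6 transcripts were read beside these results, and their part in the differences was not tested. Of 10 T cell markers tested in liver, 6 were lower, among them Cd8a with -3.16 (adjusted p = 0.00296, limma), although 3 to 6 passed with any array left out, 1 in a fit of all 20 arrays and 0 with normexp background correction. The summed level was 3.34 to 5.03 in WT(HFD) and 2.71 to 3.36 in CD44KO(HFD) liver. Of 10 monocyte and macrophage markers, Ccr2 with -1.81 (adjusted p = 0.0298, limma) and Mpeg1 with -0.96 (adjusted p = 0.0103, limma) were lower, and the sums overlapped. None of 7 B cell markers tested passed, the sums were 1.25 to 1.90 and 1.23 to 2.04, and Blk, Pax5 and Ebf1 did not pass the filter in liver. Of 10 endothelial markers 0 passed. Of 6 squamous epithelial markers tested, 1 was lower, Sprr1a with -2.64 (adjusted p = 0.0182, limma), and Krt5 differed by -0.01. Of 7 bile duct markers tested, Spp1 with -1.54 (adjusted p = 0.0302, limma) and Sox9 with -0.70 (adjusted p = 0.0497, limma) were lower. The other 5, Krt19 and Epcam among them, did not pass. Spp1 encodes osteopontin, which the study calls a pro-inflammatory cytokine, so its fall is not read as a loss of bile duct cells. The list also summed to 11.5 to 34.4 in WAT. The sum of that list was 19.5 to 79.2 in WT(HFD) and 9.63 to 20 in CD44KO(HFD) liver. It was lowest on WT(HFD) replicate 4 and highest on CD44KO(HFD) replicate 3 within their groups, the arrays at which Ly6d overlapped. Neutrophil markers had 1 of 5 higher, Csf3r with 0.59 (adjusted p = 0.0276, limma). Of 6 markers listed for mesothelium, Krt8 and Krt18, which hepatocytes also express, were lower by 0.80 and 0.50 (adjusted p = 0.0178 and 0.0365, limma). The sum of that list was 300 to 435 in WT(HFD) and 206 to 332 in CD44KO(HFD) liver. It was again lowest on WT(HFD) replicate 4 and highest on CD44KO(HFD) replicate 3 of their groups. No other list of cell markers had both of these extremes on the same arrays. Monocyte and macrophage markers, for example, were lowest on WT(HFD) replicate 3 and highest on CD44KO(HFD) replicate 5.

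**Figure D4:**
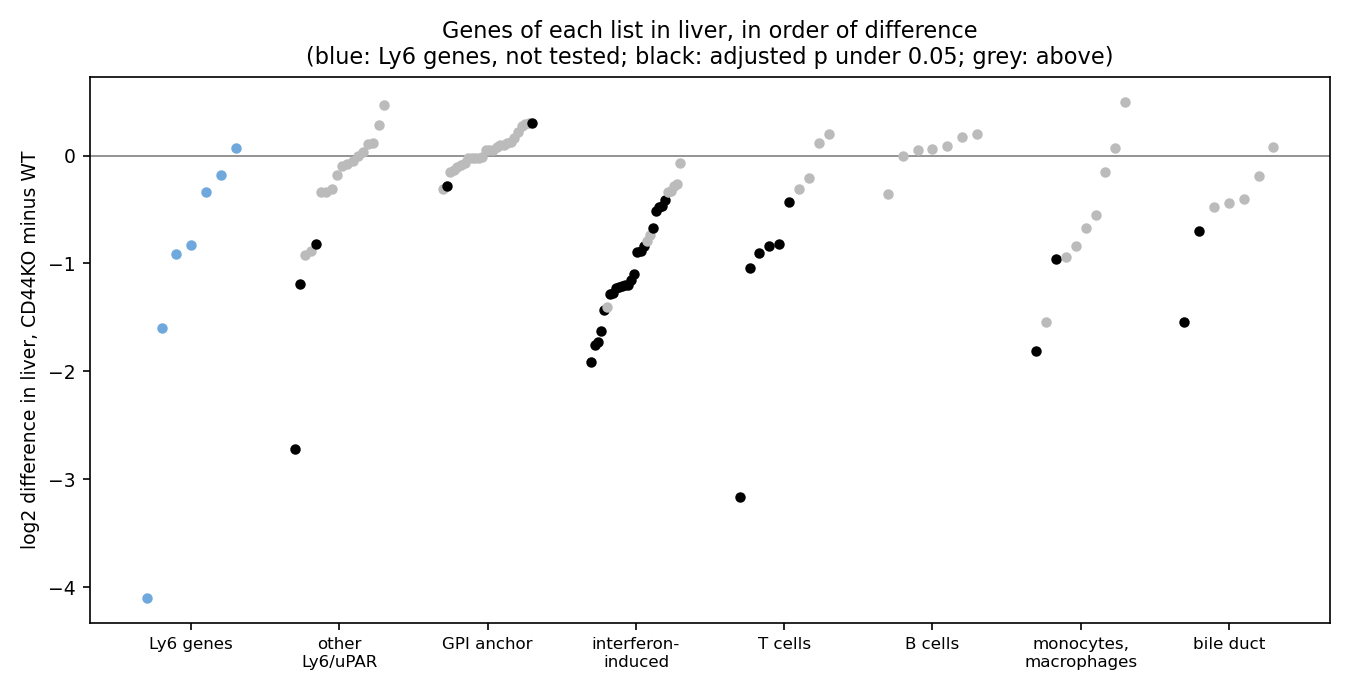
Log2 difference of CD44KO(HFD) minus WT(HFD) in liver (vertical axis) for the genes of each list that passed the filter on dim probes, in order of difference within the list. Blue points are the 7 Ly6 genes, which were not tested; black points passed an adjusted p of 0.05 and grey points did not. All 30 interferon-induced genes lie below 0, while the 26 GPI anchor genes lie close to it.

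The differences of the members in liver did not rise or fall steadily with distance from Ly6d. Ly6k, 35 kb from Ly6d, differed by -0.18, and Ly6e, Ly6i, Ly6a and Ly6c1, at 197, 221, 233 and 283 kb, by -0.83, -0.34, -1.60 and -0.91. Ly6h, at 805 kb, differed by 0.07. Within 500 kb of a member's probe lay 57 other probes of 50 symbols, of which 39 were tested. Of these, 2 were lower, Lynx1 at -14.1 kb, on the side of Ly6d away from the other members, and 9030619P08Rik with -0.75 (adjusted p = 0.018, limma). Another 3 were higher by 0.42 to 0.44, namely 2810039B14Rik, Zfp623 and AK076900. Over all 24689 probes tested in liver, 5.75% were lower and 7.85% higher, so nothing about the region is read from these counts. The median of the 39 was 0.16, and none of them passed in WAT. Most tested probes on the side of Ly6d away from the other members had differences below 0 in liver, from -0.82 for Lynx1 to 0.31 for an Adgrb1 probe. Most of those beyond Ly6h were above 0, from -0.1 for Gsdmd to 1.38 for a Zc3h3 probe. The part of position in these differences was not tested.

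**Figure D5:**
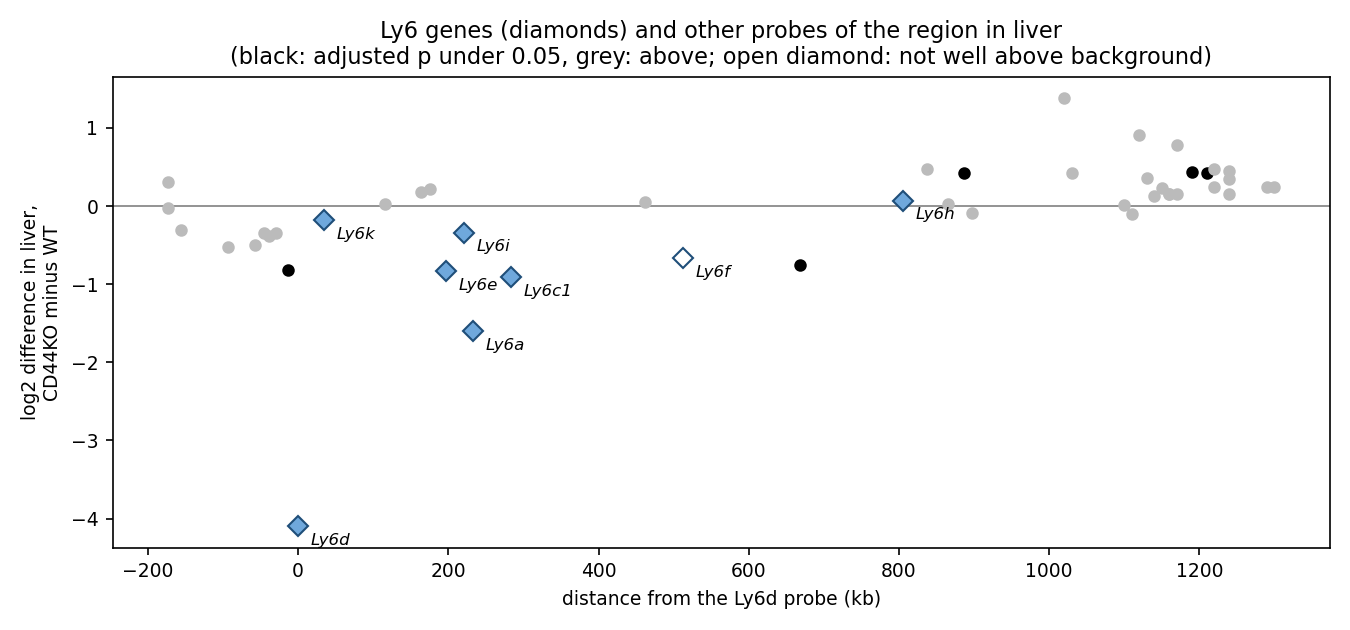
Log2 difference of CD44KO(HFD) minus WT(HFD) in liver (vertical axis) against distance from the Ly6d probe in kb (horizontal axis). Diamonds are the 8 Ly6 genes, open for Ly6f, which was not well above background, and circles are the 39 other probes tested within 500 kb of a member, black where the adjusted p was under 0.05. Genes with differences near 0 lie between those that were lower.

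In WAT, none of the Ly6 genes passed the test between genotypes. Of 7 tested, 0 were higher and 0 lower (limma, adjusted p of 0.05), where 0.0398% of all 27653 probes, 11 in number, passed. At an unadjusted p of 0.05, 14.9% of all probes passed, Ly6a among the 7 genes. The median of the 7 was -0.26, against -0.06 over all probes tested. The genotypes overlapped for all 7, and did not for 6.17% of all probes. Without WT(HFD) replicate 1, 0.136% of all probes passed and again 0 of the 7. The two-sided exact permutation test on 5 against 5 arrays cannot go below 0.0079.

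Ly6d in WAT separated individual arrays more than genotypes. WT(HFD) replicates 1 to 5 read 0.05, -2.93, -1.60, -3.04 and 0.69. CD44KO(HFD) replicates 1 to 5 read -2.37, -2.50, -2.22, -2.68 and -2.97. WT(HFD) replicates 1, 3 and 5 were above every CD44KO(HFD) array, and replicate 4 was below all of them. The difference was -1.18 (95% confidence interval -2.73 to 0.36; adjusted p = 0.436, limma; p = 0.206, exact permutation test). It was -0.83 without WT(HFD) replicate 1 and -0.67 without WT(HFD) replicate 5, the array with the most Ly6d (adjusted p = 0.58 and 0.568, limma). With any array left out it was -1.60 to -0.67.

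The 2 WAT arrays with the most Ly6d also had the most B cell transcripts. The summed level of 10 B cell markers was 9.61 on WT(HFD) replicate 5 and 4.36 on replicate 1, against 1.40 to 2.99 on the other 8 WAT arrays. Among the symbols most like Ly6d over 25349 probes, after removal of genotype means, were Tnfrsf13c, the receptor for the B cell survival factor BAFF, at r = 0.975, the transcript ENSMUST00000101001 at 0.975, Il21r, the receptor for interleukin 21, at 0.97 and 1700088E04Rik at 0.97. Other lists were highest on the same arrays. T cell markers summed to 15.9 on WT(HFD) replicate 5 and 4.57 on replicate 1, against 2.83 to 4.50 elsewhere, and squamous epithelial markers to 1.89 and 3.40, against 0.828 to 1.39 elsewhere. WT(HFD) replicate 1, the array with 89.5% of spots well above background, was also highest of the WAT arrays for other lists. Epididymis markers summed to 2.39 there (at most 0.276 elsewhere), neutrophil markers to 5.23 (at most 4.45) and bile duct markers to 34.4 (at most 30). Of 8 B cell, 12 T cell and 7 squamous epithelial markers tested in WAT, none passed between genotypes, and their part in the Ly6d values was not tested.

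Ly6a in WAT was 1.80, 2.21, 2.46, 2.23 and 2.87 in WT(HFD) and 1.61, 1.98, 1.95, 1.82 and 1.56 in CD44KO(HFD) mice. All CD44KO(HFD) arrays lay below the WT(HFD) mean, and the groups overlapped through WT(HFD) replicate 1. The difference was -0.53 (95% confidence interval -0.98 to -0.08; adjusted p = 0.275, limma; p = 0.0317, exact permutation test). Without WT(HFD) replicate 1 it was -0.66 (adjusted p = 0.149, limma).

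Ly6c1 differed between genotypes in WAT by -0.05 (95% confidence interval -0.56 to 0.47; adjusted p = 0.929, limma), and its NM_010741 probe by -0.02. Ly6e differed by -0.26 (95% confidence interval -1.03 to 0.52; adjusted p = 0.718, limma). Within a slide with 2 arrays of each genotype it differed by 0.47. Within another, with 3 WT(HFD) arrays and 1 CD44KO(HFD) array, it differed by -1.29. The remaining WAT slide held CD44KO(HFD) arrays only, so genotype and slide are partly mixed in WAT. Ly6i differed by 0.09 (95% confidence interval -0.42 to 0.59; adjusted p = 0.856, limma). The groups overlapped for all 3 genes. Without WT(HFD) replicate 1 the differences were -0.19 for Ly6c1, -0.46 for Ly6e and 0.03 for Ly6i (adjusted p = 0.687, 0.514 and 0.965, limma).

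Ly6h and Ly6k in WAT depended on WT(HFD) replicate 1, which read -0.80 and -1.98. The other WT(HFD) arrays lay between -3.33 and -2.95 for Ly6h and between -5.47 and -3.93 for Ly6k. Ly6h differed by -0.14 (adjusted p = 0.887, limma), by 0.33 without that array (adjusted p = 0.473, limma) and by 0.42 with its other probe (adjusted p = 0.325, limma). Ly6k differed by -0.86 (adjusted p = 0.489, limma) and by -0.33 without that array (adjusted p = 0.69, limma). Ly6f was well above background on 3 of 10 WAT arrays, WT(HFD) replicates 3 and 5 and CD44KO(HFD) replicate 3, and was not tested.

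Of the 30 interferon-induced genes, 0 passed in WAT, 25 differences were below 0, and the median was -0.49. Without WT(HFD) replicate 1, 27 were below 0, with a median of -0.59. None of the 18 other Ly6 and uPAR genes and 26 GPI anchor genes tested passed in WAT, with medians of -0.33 and -0.01. Without WT(HFD) replicate 1 these turned to 0.26, over 17 genes, and 0.04, and 0 passed. Whether the genotype acted differently in liver and in WAT was not tested for the Ly6 genes.

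Between tissues, Ly6a, Ly6c1, Ly6h and Ly6i were higher in WAT, and Ly6d, Ly6e and Ly6k were higher in liver, in both genotypes, except that Ly6h turned to lower in WAT of CD44KO(HFD) mice with normexp background correction. Liver and WAT were on separate slides, so tissue and slide cannot be told apart. The 75th percentile itself was 432.7 to 574.6 in liver and 1541 to 2792 in WAT, and values are relative to it. Of all probes tested, 71.7% passed between tissues in WT(HFD) and 74.8% in CD44KO(HFD) mice, with medians of -0.05 and -0.24. In WT(HFD) mice 34.9% were higher and 36.7% lower in WAT, and in CD44KO(HFD) mice 32.7% and 42.2%. The tissues did not overlap for 57.7% and 66.2%.

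Ly6d had the widest range of the 8 genes. Its means were 5.26 in WT(HFD) liver, 1.16 in CD44KO(HFD) liver, -1.37 in WT(HFD) WAT and -2.55 in CD44KO(HFD) WAT. WT(HFD) liver lay apart from WT(HFD) WAT by 98.7-fold and CD44KO(HFD) liver from CD44KO(HFD) WAT by 13.0-fold, without overlap, while CD44KO(HFD) liver and WT(HFD) WAT overlapped, as did the WAT groups. Ly6c1 was 4.71 ± 0.40 and 4.67 ± 0.32 (SD, n = 5) in WT(HFD) and CD44KO(HFD) WAT, above its 3.39 ± 0.23 and 2.47 ± 0.31 (SD, n = 5) in liver. The tissue difference of its D86232 probe was 1.33 in WT(HFD) mice, but that of its NM_010741 probe was 5.72.

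Ly6a was higher in WAT than in liver by 2.70 in WT(HFD) (95% confidence interval 2.28 to 3.12; adjusted p = 7.53e-10, limma) and by 3.77 in CD44KO(HFD) mice (adjusted p = 5.74e-12, limma). Ly6i was higher in WAT by 1.26 (adjusted p = 0.000102, limma) and 1.69 (adjusted p = 3.21e-06, limma). Ly6e was lower in WAT, with -1.71 (adjusted p = 2.02e-05, limma) and -1.14 (adjusted p = 0.00114, limma). Ly6k was lower, with -1.55 (adjusted p = 0.0125, limma) and -2.23 (adjusted p = 0.000799, limma). All of these genes but Ly6k in WT(HFD) mice had no overlap between tissues.

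Ly6h was higher in WAT by 1.22 in WT(HFD) (adjusted p = 0.00843, limma) and 1.01 in CD44KO(HFD) mice (adjusted p = 0.0231, limma). With normexp background correction the differences were 0.29 and -0.28 (adjusted p = 0.452 and 0.44, limma), so the call did not hold. The other Ly6h probe was well above background on all 10 WAT arrays and on 0 of 10 liver arrays. With the liver signal floored as described next, it was 6.11-fold higher in WAT of WT(HFD) mice and 7.88-fold in CD44KO(HFD) mice. These folds are given with no test because the probe passed the filter only through WAT. For these folds, a liver signal that was lower than the dimmest detected probe of its array was set to that probe's signal. A spot that is not detected can read above that signal, so the folds are not strict lower bounds.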

How the data were processed

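The authors hybridised Cy3-labelled RNA to 1-colour Agilent arrays and quantified the spots with Agilent Feature Extraction 9.5 (9.5.3.1 in the file headers). The deposited intensity of each spot is the processed signal, background-subtracted and detrended by that software, with no scaling between arrays. The deposited marks for well above background, saturation and outliers (values of 0 or 1) were used as given.

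From these, log2 of the processed signal minus the log2 75th percentile of its array was computed over 43379 non-control spots, without outlier spots, and averaged per probe. A probe entered a test if detected (well above background) on 3 or more of the 5 arrays of either group. Genotypes were compared within each tissue and tissues within each genotype in a fit of all 20 arrays, with limma 3.58.1 (R 4.3.3), Benjamini-Hochberg adjustment over all probes tested and a threshold of 0.05. For single genes in WAT, an exact permutation test (two-sided) was added. The p-values measure the spread between these arrays, and 5 arrays a group limit the precision.

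The members, gene lists and tests were chosen with earlier results of these data known. Named besides the members were, per list, at most 4 examples (brightest and largest change past the threshold), neighbours within 500 kb that passed, and the 5 symbols most correlated with Ly6d among probes detected on 8 or more of 10 arrays, of which 1 in WAT is not reported here. Symbols came from the files or from RefSeq by accession (22951 probes matched). Alternatives were normexp background correction with an offset of 50, quantile normalization, no filter, a fit of all 20 arrays, a replicate block, slide as a block, another probe and leaving out each array. Only the fit between genotypes in liver was tried on simulated arrays with known changes, which had no slide effects.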

Additional observations from a re-analysis of the deposited data

Results flagged for a closer look

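In 2 of 32 groups of 5 arrays a Ly6 value stood apart from the other 4, with a gap to the nearest of over 0.71 of the group's range, which chance gives in about 1 of 20 groups. Ly6h in WT(HFD) WAT replicate 1 read -0.80, against -3.33 to -2.95 in the other 4 (gap 0.851 of the range), on the array with 89.5% of spots well above background, while the other Ly6h probe read -2.33 there, within its group's range. Ly6f in CD44KO(HFD) WAT replicate 5 read -8.57, with the next value at -6.74 (gap 0.869 of the range), and the spot was not well above background. The part of array quality in these values was not tested.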

How the results depend on the processing

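In liver, Ly6d, Ly6c1, Ly6a and Ly6e were lower in CD44KO(HFD) mice in each alternative tried, with ranges of -4.89 to -3.01, -1.02 to -0.73, -1.95 to -0.97 and -1.04 to -0.54. The number of probes passing between genotypes depended on the setting, and the cause was not tested. It was 3358 in liver, 641 with normexp, 1027 with no filter, 723 in the fit of all 20 arrays and 924 (without WT(HFD) replicate 2) to 4695 with an array left out. In WAT it was 11, with 35, 3 and 1817 in the same settings, 4 with slide as a block and 3 to 37 (without WT(HFD) replicate 1) with an array left out, and none of the 7 Ly6 genes passed in any of them. Deviations from the group means were correlated between WT(HFD) and CD44KO(HFD) arrays of the same number within a tissue. The correlation was over 0.1 for 3 of 5 numbers in liver (r = -0.0381 to 0.417) and for 0 of 5 in WAT (-0.212 to 0.0916). This did not hold for every number, and the numbers were not taken as pairs. Liver and WAT arrays of the same number were not compared in this way. With a replicate block 1329 probes passed in liver and 3 in WAT.

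Of the liver probes passing, 1938 were higher and 1420 lower, against 216 and 425 with normexp, 185 and 538 in the fit of all 20 arrays and 647 and 682 with the replicate block. Between tissues, 20333 probes passed in WT(HFD) and 21212 in CD44KO(HFD) mice, 19503 to 21738 and 20345 to 21309 with an array left out. The split of 9912 higher and 10421 lower in WT(HFD) mice was 6528 and 11558 with normexp, and that of 9265 and 11947 in CD44KO(HFD) mice was 6313 and 16276 with normexp and 10683 and 9920 with quantile normalization.

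Members near 0 in WAT changed sign. Ly6c1 was 0.18 with slide as a block and -0.19 to 0.08 (0.01, 0.02 and 0.03 among them) with an array left out. With an array left out, Ly6e was -0.46 to 0 (without WT(HFD) replicate 5), Ly6i -0.09 (without CD44KO(HFD) replicate 3) to 0.19 and Ly6h -0.3 to 0.33 (without WT(HFD) replicate 1). Ly6h was 0.06 with quantile normalization and 0.42 with its other probe. The tissue difference of Ly6h in CD44KO(HFD) mice was -0.28 with normexp, and its adjusted p (limma) was 0.0502 to 0.055 without CD44KO(HFD) liver replicate 5, WAT replicate 1 or WAT replicate 2.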

Other observations

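In WAT, the 10 endothelial markers tested all had differences above 0 between CD44KO(HFD) and WT(HFD) mice, with a median of 0.66, and 0 of them passed (limma, adjusted p of 0.05, which 0.0398% of all probes passed). The 11 adipocyte and 9 hepatocyte markers tested were also all above 0, with medians of 0.63 and 0.87, and 0 passed. The 9 mesothelial markers all had differences below 0, with a median of -2.06, and 0 passed. Without WT(HFD) replicate 1, the signs held for all of these markers and 0 passed. The medians were then 0.50 for endothelial, 0.50 for adipocyte, 1.02 for hepatocyte and -2.09 for mesothelial markers.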
